A study of Mus musculus with 32 samples.

Results

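The step described here is the change in liver RNA between ZT0 and ZT6 (zeitgeber time, in hours of the lighting cycle) in mice kept under long light (LL). It was defined by the labels alone, as the 4 LL ZT6 livers against the 4 LL ZT0 livers, and so rests on 8 of the 32 libraries. All 32 mice were male C3H/HeNCrl, an inbred strain that makes melatonin, and all ate a high fat diet (HFD), which no group went without. They lived under LL or short light (SL), and 4 mice were taken per photoperiod at each of ZT0, ZT6, ZT12 and ZT18. Each library came from another mouse, and each time of day was sampled in other mice, so the step compares groups and follows no animal. Not given in the sources used here were the ages, the hours of light in LL and SL, the event that sets ZT0 and the feeding times.

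The mammalian clock is a feedback loop of transcription factors. Arntl and its partners Clock and Npas2 bind E-boxes and drive the Per, Cry and Nr1d genes as well as Dbp and Tef. PER and CRY proteins then block their activators. The REV-ERB receptors, encoded by Nr1d1 and Nr1d2, repress Arntl, Npas2 and Cry1 at elements that ROR receptors activate, and Dbp, Tef and the repressor Nfil3 act on D-boxes. In liver this loop and feeding together time the synthesis and breakdown of fat, sterols, bile acids and drugs.

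The LL ZT6 libraries held 10960794 to 27462776 counted reads and the LL ZT0 libraries 9095615 to 16652750. Levels are given as CPM, read counts scaled for each library's depth and composition. The 4 hepatocyte markers together took 99140 to 113600 CPM at ZT6 and 98160 to 120400 CPM at ZT0. Skeletal muscle markers, which liver should lack, summed to 0.549, 8.32, 22.3 and 1.004 CPM at ZT6 and to 6.53, 89.2, 1.65 and 0.730 CPM at ZT0. LL ZT0 replicate 2 held the most muscle RNA of the 8 libraries. None of the 6 tested muscle markers was called, and without that library 184 genes were called in place of 225. In bulk RNA, fewer cells of a type and less RNA per cell cannot be told apart.

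Of 14456 tested genes, 225 were called between LL ZT6 and LL ZT0 by edgeR's quasi-likelihood test at a Benjamini-Hochberg adjusted p below 0.05 (1.56% of all tested). At ZT6, 114 genes were higher (0.789%) and 111 lower (0.768%). A change of at least 2-fold was reached by 20 of the higher and 27 of the lower genes. The median log2 change was 0.52 among the higher, -0.72 among the lower and -0.001 among all tested genes. The 4 ZT6 values lay wholly above the 4 ZT0 values for 104 of the 114 higher genes and wholly below them for 107 of the 111 lower genes, against 9.7% of all tested genes in either direction (5.11% above and 4.59% below). The same values made the calls, so this separation follows largely from the calling and is no separate support.

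The number of calls depended on single mice. It was 123 without LL ZT6 replicate 1, 104 without LL ZT6 replicate 4, 123, 122 and 134 without LL ZT0 replicates 1, 3 and 4, and 167 to 214 without each of the other 3. In all 8 of these fits 76 genes stayed called, 33 higher and 43 lower, and all 225 kept their sign. For most called genes the groups did not overlap, so leaving out 1 library could hardly turn the sign. LL ZT6 replicates 1 and 4 lay farthest from ZT0 for most called genes. They held the highest ZT6 value for 47 and 39 of the 114 higher genes, against 12 and 16 for replicates 2 and 3. For the 111 lower genes they held the lowest ZT6 value in 47 and 49 cases, against 8 and 7. Among genes not called, the highest ZT6 value fell in replicates 1 to 4 for 3387, 3802, 3326 and 3716 genes.

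**Figure D1:**
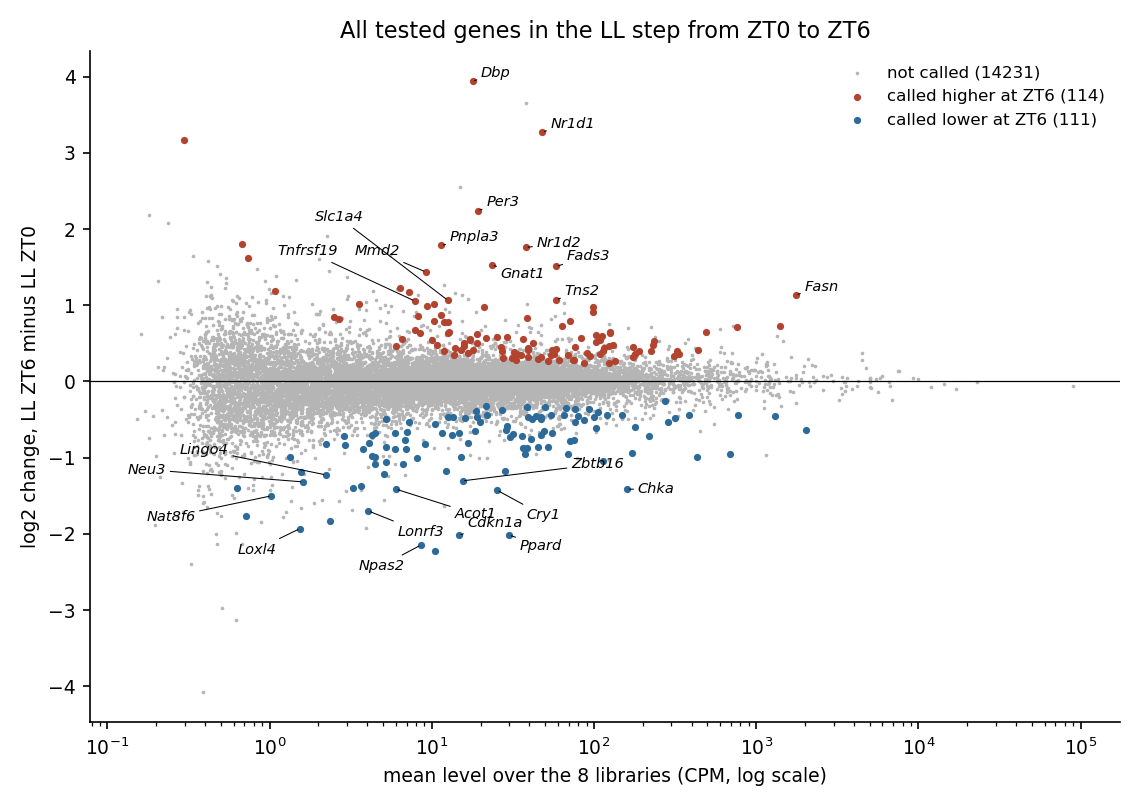
Log2 change of every tested gene between LL ZT6 and LL ZT0 (vertical axis) against its mean level over the 8 libraries in CPM (horizontal log axis). Red points are the 114 genes called higher at ZT6 and blue points the 111 called lower; the 12 largest rises and falls at a mean of at least 1 CPM are named, leaving out Gm and Rik identifiers, with Dbp at 3.94 and Npas2 at -2.15.

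Among called genes with a mean of at least 1 CPM, leaving out loci with only a Gm or Rik identifier, the largest rise and the largest fall were of clock genes. Of 19 tested clock genes, 5 were called higher at ZT6 (Dbp, Nr1d1, Per3, Nr1d2 and Tef) and 5 lower, among them Npas2, Cry1, Arntl and Nfil3, and their median log2 change was 0.11. Over all tested genes 0.789% were called higher and 0.768% lower. Dbp, a D-box activator driven by the E-box loop, had the largest rise of all called genes. It had 48.1, 17.2, 20.8 and 47.8 CPM in the ZT6 livers, against 2.20003, 1.87, 3.08 and 1.79 CPM in the ZT0 livers. The groups were far apart, and within ZT6 replicates 1 and 4 stood above replicates 2 and 3. The log2 change was 3.94 ± 0.43 (SE) with an adjusted p of 1.06e-06 by edgeR's quasi-likelihood test. That test gave every adjusted p here except where another method is named.

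Both REV-ERB receptors rose. Nr1d1 had 82.9, 71.5, 80.5 and 113 CPM at ZT6, against 4.69, 14.1, 10.7 and 6.51 CPM at ZT0. Nr1d2 had 72.1, 55.0, 49.5 and 59.2 CPM at ZT6, against 14.1, 23.1, 18.1 and 14.1 CPM at ZT0. No ZT6 liver came near a ZT0 liver for either gene. The log2 change was 3.27 ± 0.32 for Nr1d1 (adjusted p 1.21e-07) and 1.76 ± 0.19 for Nr1d2 (adjusted p 7.17e-07). The annotated bodies of Nr1d1 and Thra, a thyroid hormone receptor gene on the opposite strand, overlap by 1075 bases. Thra was itself called higher, with 20.6 ± 3.12 CPM at ZT6 and 15.5 ± 0.969 CPM at ZT0 (SD, n = 4 each), a log2 change of 0.42 ± 0.11 and an adjusted p of 0.0453. It lost that call without LL ZT6 replicates 3 or 4 or LL ZT0 replicates 1, 2, 3 or 4 (adjusted p 0.0674 to 0.196). Since the sources used here do not give the strand setting of the counting, reads from the shared bases cannot be assigned. Dbp shares 737 bases with Sphk2 on the opposite strand, and Sphk2 stood at 38.5 CPM at ZT6 and 38.4 CPM at ZT0.

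Per3, a period repressor gene, had 52.2, 21.98, 19.8 and 33.1 CPM at ZT6, against 5.43, 6.03, 8.68 and 6.77 CPM at ZT0. The groups did not overlap, and ZT6 replicate 1 was the highest (log2 change 2.24 ± 0.27, adjusted p 5.14e-06). Tef, a relative of Dbp, had 176, 108, 114 and 124 CPM at ZT6, against 56.0, 70.8, 68.8 and 68.8 CPM at ZT0. Every ZT6 liver was above every ZT0 liver, and replicate 1 was again the highest (log2 change 0.98 ± 0.14, adjusted p 9.15e-05).

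The lower clock genes included members of the activating arm. Npas2, a partner of Arntl, had 1.74, 4.13, 3.77 and 2.65 CPM at ZT6, against 19.9, 9.13, 12.4 and 14.6 CPM at ZT0 (log2 change -2.15 ± 0.33, adjusted p 0.000267). Arntl had 8.42, 20.8, 21.5 and 17.4 CPM at ZT6, against 36.7, 39.7, 42.7 and 38.05 CPM at ZT0 (log2 change -1.18 ± 0.23, adjusted p 0.00488). ZT6 replicate 1, the liver highest in Dbp, Per3 and Tef, was the lowest in both genes. Cry1, a repressor of the loop, had 13.8, 16.1, 12.5 and 12.6 CPM at ZT6, against 35.1, 40.1, 31.001 and 41.3 CPM at ZT0. Its 4 ZT6 values were close together and all under the lowest ZT0 value (log2 change -1.43 ± 0.14, adjusted p 1.21e-07).

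Nfil3, which represses at D-boxes, had 31.1, 37.5, 45.1 and 41.8 CPM at ZT6, against 51.3, 54.5, 61.9 and 51.4 CPM at ZT0. The groups did not overlap (log2 change -0.49 ± 0.13, adjusted p 0.0468). The Nfil3 call was lost without LL ZT6 replicates 1, 2 or 4 or LL ZT0 replicates 1, 2, 3 or 4 (adjusted p 0.0761 to 0.197).

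**Figure D2:**
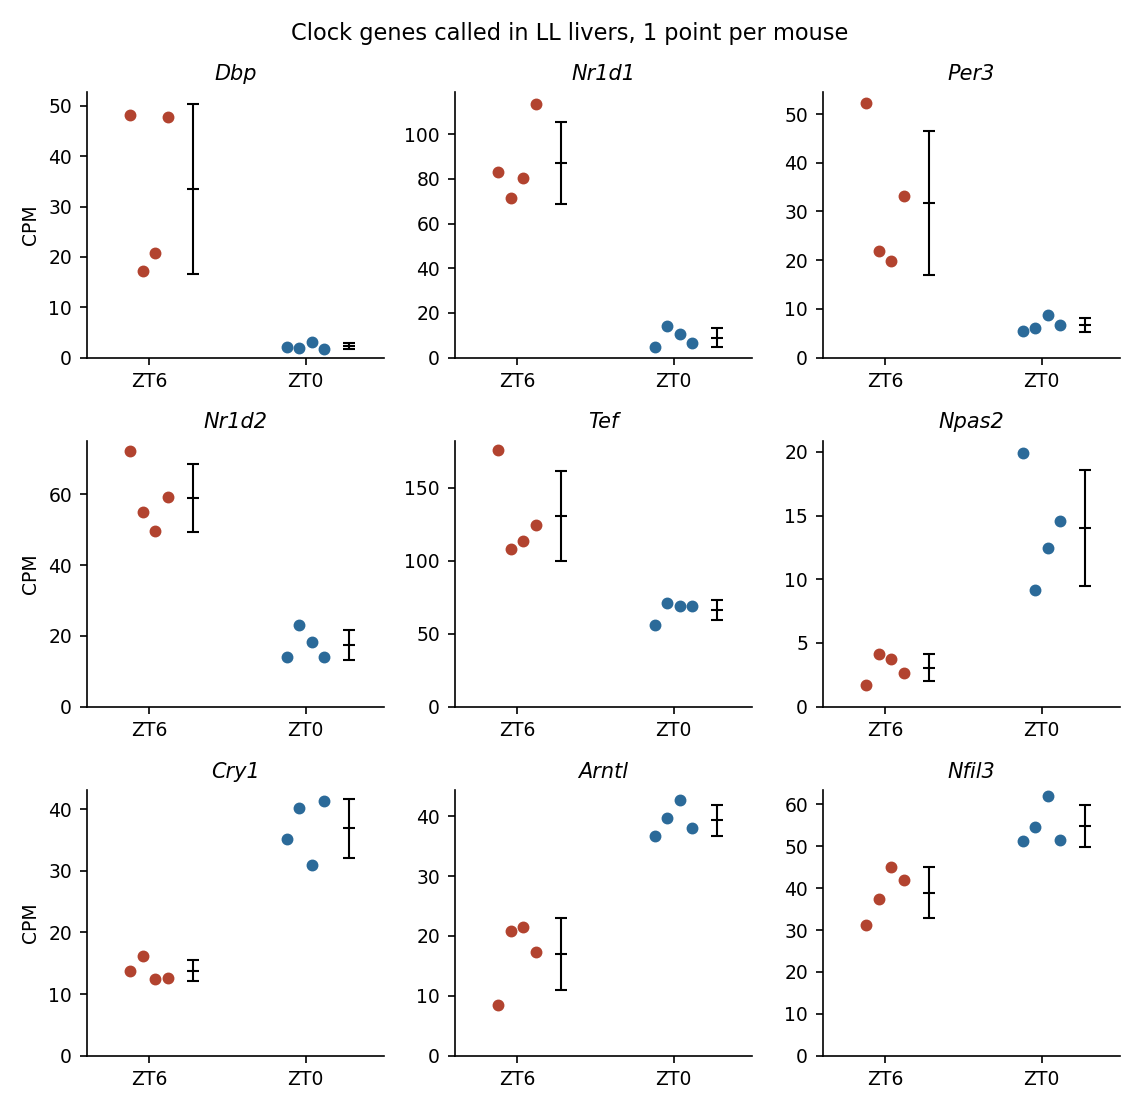
CPM of 9 of the 10 called clock genes in each LL liver, 1 point per mouse, ZT6 in red left of ZT0 in blue, with the mean and SD (n = 4) as a black bar beside the points. No ZT6 point of any of the 9 genes falls within the ZT0 range, and replicate 1 at ZT6 is the highest in Dbp, Per3, Nr1d2 and Tef.

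The other 9 clock genes were not called. Clock, the usual partner of Arntl, had 38.8, 48.3, 54.4 and 46.8 CPM at ZT6, against 74.4, 62.0, 74.0 and 72.2 CPM at ZT0, without overlap (log2 change -0.58 ± 0.19, adjusted p 0.142). Per2 had 79.0, 52.3, 45.9 and 44.4 CPM at ZT6 and 36.9, 37.9, 27.8 and 38.05 CPM at ZT0, also without overlap (log2 change 0.64 ± 0.18, adjusted p 0.0751). Per1 had 14.005, 8.04, 4.67 and 5.98 CPM at ZT6 and 7.92, 10.7, 5.17 and 8.96 CPM at ZT0, so the groups overlapped (log2 change -0.10 ± 0.31). Ciart, an E-box repressor, had 6.22, 1.49, 2.44 and 2.28 CPM at ZT6 and 0.513, 1.29, 0.770 and 1.06 CPM at ZT0. The groups did not overlap, and replicate 1 stood above the other ZT6 livers (log2 change 1.603 ± 0.57, adjusted p 0.185). Other settings called 3 of these genes. With no filter on low counts the adjusted p was 0.0469 for Clock, 0.0136 for Per2 and 0.0469 for Ciart. It was 0.0186 for Clock in a fit on only the 8 libraries of the step, and 0.0273 for Per2 and 0.0324 for Ciart by DESeq2. Cry2, Rora, Hlf, Bhlhe40 and Bhlhe41 had log2 changes of 0.17, -0.31, 0.11, 0.01 and 0.98.

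Promoter sequence was read for the called clock genes from RefSeq windows on GRCm38.p6 that run from 250 bases before to 50 after a gene's start. Windows existed for 16 of the 19 clock genes. They were searched on both strands for the E-box CACGTG, the D-box TTANGTAA and the ROR and REV-ERB element, which is AGGTCA or GGGTCA directly after AANT. Of the 32851 windows in the table, 7.15% held the E-box, 2.32% the D-box and 0.44% the ROR element. These shares were 9.59%, 1.67% and 0.34% for windows of tested genes, and 28.57%, 4.76% and 4.76% for the 21 windows of clock genes. The windows of Dbp, Nr1d2, Arntl and Nfil3 held neither the E-box nor the D-box. The 250 bases before the start are shown for 3 genes with a match, with the match in capitals, 5′ to 3′ on the gene's strand. Per3 (chr4:151044666-151044915, minus strand), called higher, held the D-box at 205 and 158 bases before its start. Tef (chr15:81802423-81802672, plus strand), called higher, held the E-box 127 bases before its start. Another Tef window, not shown, held the E-box 138 bases before a different start. Cry1 (chr10:85185055-85185304, minus strand), called lower, held the E-box 60 bases before its start. The E-box letters thus stood before a gene that was higher and before a gene that was lower at ZT6.
Per3: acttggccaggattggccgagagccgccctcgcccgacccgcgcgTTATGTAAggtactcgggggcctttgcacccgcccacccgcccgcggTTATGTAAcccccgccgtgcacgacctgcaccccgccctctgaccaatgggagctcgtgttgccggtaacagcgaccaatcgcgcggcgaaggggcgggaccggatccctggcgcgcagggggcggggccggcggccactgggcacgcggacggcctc
Tef: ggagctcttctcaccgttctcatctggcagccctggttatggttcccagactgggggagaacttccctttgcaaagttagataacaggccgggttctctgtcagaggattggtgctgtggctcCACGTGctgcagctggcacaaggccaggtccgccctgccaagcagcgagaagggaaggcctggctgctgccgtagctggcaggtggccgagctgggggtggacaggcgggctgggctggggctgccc
Cry1: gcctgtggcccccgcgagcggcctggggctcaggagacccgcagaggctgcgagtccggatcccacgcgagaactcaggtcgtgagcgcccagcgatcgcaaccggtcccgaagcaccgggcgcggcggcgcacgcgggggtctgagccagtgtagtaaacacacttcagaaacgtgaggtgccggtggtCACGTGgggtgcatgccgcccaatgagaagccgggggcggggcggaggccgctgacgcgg

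The ROR and REV-ERB element was found in 5 of the 103 windows of genes called lower (4.85%), in 1 of the 108 windows of genes called higher (0.93%) and in 0.34% of the 13429 windows of tested genes. Windows were matched for 87 of the 111 lower and 84 of the 114 higher genes. Counted by gene, the element was in 4.6% of the lower, 1.19% of the higher and 0.39% of the tested genes with a window. The 5 windows belonged to 4 genes, since both Ivns1abp windows overlap and hold the same site. Each gene's site is shown as 30 bases with the element in capitals on the gene's strand. In Arntl the element begins at base 28 after the start. For Ivns1abp and Zkscan1 the capitals are the element's reverse complement. The stretches lie at chr7:113207528-113207557 (plus strand) for Arntl, chr13:93637842-93637871 (minus) for Bhmt, chr1:151344311-151344340 (plus) for Ivns1abp and chr5:138085073-138085102 (plus) for Zkscan1. These letters are a description, and binding was not measured.
Arntl: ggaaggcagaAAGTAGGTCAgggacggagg
Bhmt: ctggcagcttAAGTGGGTCAtggatacctg
Ivns1abp: caccttgcgcTGACCTAGTTgagccgagaa
Zkscan1: gatgaggtgcTGACCTACTTccggtctttg

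E-boxes were in 13.89% of the windows of higher genes, 11.65% of those of lower genes and 9.59% of those of tested genes. D-boxes were in 2.78%, 1.94% and 1.67%. Bhmt is described with the methionine cycle. Ivns1abp, an actin-binding kelch protein gene, had 101 ± 10.995 CPM at ZT6 and 138 ± 10.2 CPM at ZT0 (SD, n = 4 each, log2 change -0.44 ± 0.08, adjusted p 0.00309). Zkscan1, a zinc finger gene, had 62.5 ± 2.01 CPM at ZT6 and 90.6 ± 7.77 CPM at ZT0 (SD, n = 4 each, log2 change -0.53 ± 0.14, adjusted p 0.0387). The Zkscan1 call was lost without LL ZT6 replicates 1, 2, 3 or 4 or LL ZT0 replicates 1, 3 or 4 (adjusted p 0.0698 to 0.133).

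Among the 12 largest rises, 8 were not clock genes, and 3 of these act on lipids. Fads3, of the fatty acid desaturase family, had 132, 62.5, 82.6 and 69.3 CPM at ZT6, against 29.4, 25.5, 44.2 and 23.2 CPM at ZT0 (log2 change 1.51 ± 0.27, adjusted p 0.00194). Fasn, fatty acid synthase, had 3449, 2310.1, 1864 and 2080.0 CPM at ZT6, against 1532, 858, 916 and 1110.0 CPM at ZT0 (log2 change 1.14 ± 0.30, adjusted p 0.0433). Pnpla3, a lipid droplet protein, had 24.6, 16.1, 13.3 and 16.8 CPM at ZT6, against 7.19, 3.16, 6.38 and 4.05 CPM at ZT0 (log2 change 1.78 ± 0.43, adjusted p 0.0259). ZT6 livers were above ZT0 livers for all 3, and replicate 1 was the highest each time. The Fasn call was lost without LL ZT6 replicates 1, 2 or 4 or LL ZT0 replicates 2, 3 or 4 (adjusted p 0.0643 to 0.191). The Pnpla3 call was lost without LL ZT6 replicates 1 or 4 or LL ZT0 replicates 2, 3 or 4 (adjusted p 0.0537 to 0.1).

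The other rises were of mixed function. Gnat1, the rod photoreceptor transducin subunit, had 46.5, 25.9997, 29.2 and 38.9 CPM at ZT6, against 11.2, 16.3, 11.3 and 9.43 CPM at ZT0 (log2 change 1.53 ± 0.19, adjusted p 9.18e-06). Its neighbour Slc38a3, a glutamine transporter gene 4943 bases away on the same strand, also rose, with 2008, 1502, 1662 and 1862 CPM at ZT6, against 968, 1235, 1048 and 1005 CPM at ZT0 (log2 change 0.72 ± 0.11, adjusted p 0.000148). Whether Slc38a3 transcripts add reads to Gnat1 was not tested. Tns2, a focal adhesion tensin, had 90.6, 65.6, 80.0 and 81.8 CPM at ZT6, against 31.2, 44.4, 36.2 and 38.9 CPM at ZT0, more than a 2-fold gap between means (log2 change 1.07 ± 0.15, adjusted p 9.94e-05).

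Slc1a4, a transporter of small neutral amino acids, had 19.95, 20.4, 11.7 and 16.2 CPM at ZT6, against 9.24, 8.49, 6.596 and 7.83 CPM at ZT0 (log2 change 1.07 ± 0.21, adjusted p 0.00488). Tnfrsf19, a receptor of the TNF receptor superfamily, had 11.2, 10.2, 10.05 and 10.9 CPM at ZT6, against 6.67, 3.80, 6.27 and 3.92 CPM at ZT0 (log2 change 1.05 ± 0.17, adjusted p 0.000621). Its 4 ZT6 values were nearly equal. Mmd2, a membrane protein of the progestin and adipoQ receptor family, had 23.4, 7.99, 8.79 and 13.96 CPM at ZT6, against 4.47, 6.03, 4.29 and 4.58 CPM at ZT0 (log2 change 1.44 ± 0.31, adjusted p 0.0103). That call was lost without LL ZT6 replicate 1 (adjusted p 0.073).

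Sterol genes were mostly higher at ZT6. Of 25 tested genes of cholesterol synthesis and uptake, 6 were called higher and 0 lower, against 0.789% of all tested genes called higher. Of the 25, 23 had a positive log2 change, and the median was 0.43 beside -0.001 over all tested genes. In 17 of the 25 the ZT6 values lay wholly above the ZT0 values, against 5.11% of all tested genes, and 19 had an unadjusted p below 0.05, as had 1853 of the 14456 tested genes. Nsdhl, a late enzyme of the pathway, had 113, 121, 119 and 134 CPM at ZT6, against 77.4, 82.1, 93.7 and 87.8 CPM at ZT0 (log2 change 0.51 ± 0.10, adjusted p 0.00704). Mvk, mevalonate kinase, had 28.6, 26.6, 31.04 and 34.5 CPM at ZT6, against 16.4, 22.2, 19.5 and 22.6 CPM at ZT0 (log2 change 0.58 ± 0.14, adjusted p 0.0197). Every ZT6 liver was above every ZT0 liver for both genes.

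Fdft1, squalene synthase, had 141, 149, 158 and 162 CPM at ZT6, against 93.6, 116, 116 and 111 CPM at ZT0, without overlap (log2 change 0.48 ± 0.12, adjusted p 0.0234). Further called members were Hsd17b7 (0.55 ± 0.14, adjusted p 0.0438) and Lss, lanosterol synthase (0.60 ± 0.16, adjusted p 0.0497). Srebf2, which encodes the main activator of the pathway, differed by -0.01 ± 0.10 (adjusted p 0.992). Nsdhl kept its call in all 8 fits that left out 1 library. Calls were lost for Mvk without LL ZT6 replicates 3 or 4 or LL ZT0 replicates 1 or 3 (adjusted p 0.0515 to 0.117) and for Fdft1 without LL ZT6 replicates 3 or 4 or LL ZT0 replicates 1 or 4 (adjusted p 0.0568 to 0.124). They were lost for Hsd17b7 without LL ZT6 replicates 1, 2, 3 or 4 or LL ZT0 replicates 1, 3 or 4 (adjusted p 0.0619 to 0.168) and for Lss without LL ZT6 replicates 1, 3 or 4 or LL ZT0 replicates 1, 2, 3 or 4 (adjusted p 0.0766 to 0.181).

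Of 22 tested genes of fatty acid and triglyceride synthesis, 3 were called higher and 0 lower, with a median of 0.23. Over all tested genes 0.789% were called higher. Beside Fasn and Pnpla3 this was Srebf1, the transcription factor gene for lipogenesis, with 709, 556, 508 and 616 CPM at ZT6, against 438, 380.5, 285 and 413 CPM at ZT0 (log2 change 0.65 ± 0.16, adjusted p 0.0236). The groups did not overlap. The Srebf1 call was lost without LL ZT6 replicates 1 or 4 or LL ZT0 replicates 2 or 3 (adjusted p 0.0537 to 0.12). Other enzymes of the same route were not called. Acaca, acetyl-CoA carboxylase, had 148 ± 24.9 CPM at ZT6 and 123 ± 31.6 CPM at ZT0 (SD, n = 4 each), and Scd1, stearoyl-CoA desaturase, had 11672 ± 2756 CPM at ZT6 and 12277 ± 3242 CPM at ZT0, with log2 changes of 0.26 ± 0.22 and -0.07 ± 0.23 (adjusted p 0.676 and 0.947).

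The sterol exporter pair of the bile acid and transport list rose, and the enzymes of bile acid synthesis gave no call. Of 21 tested members 2 were called higher, 0 lower, with a median of 0.05, against 0.789% called higher over all tested genes. Abcg8 had 125, 107, 127 and 139 CPM at ZT6, against 72.6, 98.4, 75.1 and 81.3 CPM at ZT0, without overlap (log2 change 0.61 ± 0.11, adjusted p 0.00353). Abcg5, its partner, had 116, 78.4, 99.9 and 104 CPM at ZT6, against 63.1, 79.9, 64.5 and 61.2 CPM at ZT0, with ZT6 replicate 2 just under ZT0 replicate 2 (log2 change 0.57 ± 0.12, adjusted p 0.00781). The Abcg5 call was lost in a fit on only the 16 LL libraries (adjusted p 0.0592). The annotated bodies of the pair overlap by 6710 bases on opposite strands, so shared reads cannot be assigned. Cyp7a1, the rate-limiting enzyme of bile acid synthesis, had 127, 130.5, 88.8 and 97.6 CPM at ZT6 and 208, 87.2, 239.7 and 123 CPM at ZT0, a wide scatter with overlap (log2 change -0.57 ± 0.32, adjusted p 0.485).

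Among the 12 largest falls, 10 were not clock genes. Ppard, the fatty acid sensing nuclear receptor PPAR delta, had the smallest p of all tested genes. It had 10.3, 11.6, 13.997 and 11.5 CPM at ZT6, against 50.9, 44.8, 39.6 and 57.7 CPM at ZT0 (log2 change -2.02 ± 0.15, adjusted p 5.12e-10). Cdkn1a, an inhibitor of cyclin-dependent kinases, had 2.84, 8.48, 6.53 and 5.02 CPM at ZT6, against 24.6, 20.7, 24.4 and 25.6 CPM at ZT0 (log2 change -2.02 ± 0.26, adjusted p 1.25e-05). Neither group of either gene came near the other. Chka, choline kinase alpha, had 56.3, 101, 113 and 79.1 CPM at ZT6, against 239.9, 174, 280.2 and 239 CPM at ZT0 (log2 change -1.41 ± 0.21, adjusted p 0.000131).

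Lonrf3, a RING finger protein gene, had 1.46, 1.87, 2.15 and 2.01 CPM at ZT6, against 8.14, 4.27, 6.05 and 6.57 CPM at ZT0 (log2 change -1.70 ± 0.29, adjusted p 0.000852). Zbtb16, a zinc finger repressor induced by glucocorticoids, had 6.59, 10.1, 9.98 and 8.76 CPM at ZT6, against 19.2, 21.6, 21.1 and 26.7 CPM at ZT0 (log2 change -1.30 ± 0.31, adjusted p 0.0258). Acot1, a cytosolic acyl-CoA thioesterase, had 2.84, 4.79, 3.95 and 1.51 CPM at ZT6, against 12.0, 5.44, 7.81 and 9.96 CPM at ZT0 (log2 change -1.41 ± 0.34, adjusted p 0.0242). ZT6 livers were below ZT0 livers for all 3. The calls were lost for Zbtb16 without LL ZT6 replicates 1, 3 or 4 or LL ZT0 replicates 3 or 4 (adjusted p 0.0523 to 0.102) and for Acot1 without LL ZT6 replicates 1 or 4 or LL ZT0 replicates 1 or 4 (adjusted p 0.0742 to 0.134). Acot1 belongs to a cluster of similar genes, and the sources used here do not say how reads that match several copies were counted.

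Loxl4, Nat8f6 and Neu3 were near 1 to 2 CPM, where few reads support a value. Loxl4, a lysyl oxidase of the matrix, had 0.458, 0.881, 0.502 and 0.639 CPM at ZT6, against 4.84, 1.05, 2.64 and 1.26 CPM at ZT0, with replicate 1 the highest at ZT0 (log2 change -1.93 ± 0.44, adjusted p 0.0165). Its call was lost without LL ZT6 replicates 1, 3 or 4 or LL ZT0 replicate 1 (adjusted p 0.0555 to 0.18). Nat8f6, of the NAT8 acetyltransferase family, had 0.458, 0.496, 0.718 and 0.365 CPM at ZT6, against 1.54, 0.995, 2.09 and 1.53 CPM at ZT0 (log2 change -1.50 ± 0.35, adjusted p 0.0209). It overlaps Nat8f5 on the same strand by 3737 bases, and its call was lost without LL ZT6 replicates 1 or 4 or LL ZT0 replicates 1, 3 or 4 (adjusted p 0.0575 to 0.111). Neu3, a sialidase that acts on gangliosides, had 0.458, 1.05, 0.969 and 1.05 CPM at ZT6, against 2.71, 1.81, 2.64 and 2.12 CPM at ZT0 (log2 change -1.32 ± 0.28, adjusted p 0.0112). Its call was lost without LL ZT0 replicate 1 (adjusted p 0.0522).

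Methyl group genes were looked at after their values had been seen. Of 26 tested genes of the methionine cycle and one-carbon metabolism, 0 were called higher and 3 lower, with a median of -0.01, against 0.768% called lower over all tested genes. Ahcy, which clears the by-product of methylation reactions, had 312, 240.2, 279 and 231 CPM at ZT6, against 347, 400.1, 353 and 379 CPM at ZT0 (log2 change -0.48 ± 0.08, adjusted p 0.000731). Bhmt, which uses betaine from choline to remake methionine, had 1525, 1853, 1692 and 1261 CPM at ZT6, against 2414, 2018, 2762 and 2684 CPM at ZT0 (log2 change -0.64 ± 0.15, adjusted p 0.0242). In both genes every ZT6 liver was below every ZT0 liver.

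The transcript Gm15622 overlaps Bhmt by 3252 bases on the opposite strand and had the largest fall of any called gene. It stood at 2.29, 3.97, 4.09 and 3.74 CPM at ZT6, against 22.7, 7.96, 29.4 and 9.63 CPM at ZT0 (log2 change -2.23 ± 0.54, adjusted p 0.0255). Without the strand setting of the counting, its reads and those of Bhmt cannot be told apart. The calls were lost for Gm15622 without LL ZT6 replicates 1, 2, 3 or 4 or LL ZT0 replicates 1 or 3 (adjusted p 0.0528 to 0.117) and for Bhmt without LL ZT6 replicates 1 or 4 or LL ZT0 replicates 1, 3 or 4 (adjusted p 0.0571 to 0.134).

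Choline genes were gathered in the same way. Of 18 tested genes of choline and ethanolamine phospholipid synthesis, 1 was called higher and 2 lower, with a median of -0.06, against 1.56% called in either direction over all tested genes. Chka fell as described. Slc44a1, a choline transporter, had 58.9 ± 2.75 CPM at ZT6 and 75.0 ± 5.13 CPM at ZT0 (SD, n = 4 each, log2 change -0.35 ± 0.09, adjusted p 0.0352). Etnk2, an ethanolamine kinase, went the other way with 269 ± 45.7 CPM at ZT6 and 193 ± 26.7 CPM at ZT0 (log2 change 0.48 ± 0.11, adjusted p 0.0175). The calls were lost for Slc44a1 without LL ZT6 replicates 1, 2, 3 or 4 or LL ZT0 replicates 1, 3 or 4 (adjusted p 0.0523 to 0.137) and for Etnk2 without LL ZT6 replicates 1 or 4 or LL ZT0 replicates 1 or 3 (adjusted p 0.0867 to 0.108).

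Some drug-handling genes were called, more of them lower than higher. Of 25 tested phase 1 enzymes and receptors, 0 were called higher and 2 lower, with a median of -0.22, and of 25 conjugation enzymes 1 was called higher and 2 lower, with a median of 0.00, against 1.56% of all tested genes called in either direction. Fmo5, a flavin monooxygenase, had 769, 692, 607 and 539.9 CPM at ZT6, against 822, 952, 857 and 908 CPM at ZT0 (log2 change -0.44 ± 0.10, adjusted p 0.012). Gsta3, a glutathione transferase, had 1143, 1185, 1182 and 929 CPM at ZT6, against 1490.0, 1395, 1532 and 1664 CPM at ZT0 (log2 change -0.45 ± 0.08, adjusted p 0.00255). Neither gene's groups overlapped, and ZT6 replicate 4 was the lowest liver for both. The Fmo5 call was lost without LL ZT6 replicate 4 (adjusted p 0.087).

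Cyp3a13, a cytochrome P450, and Sult1d1, a sulfotransferase, changed by -0.49 and -0.51 on the log2 scale (adjusted p 0.0283 and 0.0311). Gstm4, another glutathione transferase, rose by 0.42 (adjusted p 0.0275). The calls were lost for Cyp3a13 without LL ZT6 replicates 2, 3 or 4 or LL ZT0 replicates 2, 3 or 4 (adjusted p 0.0509 to 0.149), for Sult1d1 without LL ZT6 replicates 3 or 4 or LL ZT0 replicates 1, 2 or 3 (adjusted p 0.0684 to 0.172) and for Gstm4 without LL ZT6 replicates 1, 2, 3 or 4 or LL ZT0 replicates 1 or 2 (adjusted p 0.0529 to 0.105). Ces1d, a lipase of the carboxylesterase family that was listed with lipoprotein assembly, had 472, 519, 561 and 337 CPM at ZT6, against 959, 696, 962 and 1034 CPM at ZT0. Each ZT6 liver was below each ZT0 liver (log2 change -0.95 ± 0.14, adjusted p 0.000174), and it was the 1 call, lower, among 24 tested genes of that list.

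Sugar and amino acid metabolism gave few calls. Sds, serine dehydratase, which feeds gluconeogenesis, had 127, 109, 134 and 148 CPM at ZT6, against 54.3, 92.0, 56.7 and 71.5 CPM at ZT0 (log2 change 0.91 ± 0.19, adjusted p 0.00876). It was the only call among 18 tested genes of gluconeogenesis and the fasting response and among 26 of amino acid breakdown, and was lost without LL ZT0 replicate 1 (adjusted p 0.0565). It shares 651 bases with Plbd2 on the opposite strand, which stood at 68.1 CPM at ZT6 and 67.7 CPM at ZT0. Ppp1r3c, which brings a phosphatase to glycogen, had 88.4, 136, 120.2 and 126 CPM at ZT6, against 222, 209.5, 205 and 265 CPM at ZT0 (log2 change -0.94 ± 0.23, adjusted p 0.0305). It was the only call, lower, of 19 glucose and glycogen genes, and was lost without LL ZT6 replicates 1, 3 or 4 or LL ZT0 replicates 1, 3 or 4 (adjusted p 0.0537 to 0.136). Acot1 was the only call, lower, of 30 tested genes of fatty acid oxidation and ketogenesis. Over all tested genes 1.56% were called in either direction, and nothing is read from a list with 1 call.

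Of 19 tested interferon-response genes 2 were called higher and 0 lower, all 19 had a positive log2 change, and the median was 0.30. Over all tested genes 0.789% were called higher. Usp18, which removes the ISG15 tag and damps interferon signalling, had 12.0, 13.8, 13.4 and 15.9 CPM at ZT6, against 7.77, 5.68, 6.27 and 7.50 CPM at ZT0 (log2 change 1.02 ± 0.20, adjusted p 0.00488). Isg15, the tag itself, had 8.79, 10.4, 11.02 and 12.0 CPM at ZT6, against 6.38, 5.03, 4.84 and 7.10 CPM at ZT0 (log2 change 0.85 ± 0.20, adjusted p 0.0186). No ZT6 liver was below a ZT0 liver for either gene. The Isg15 call was lost without LL ZT6 replicate 4 or LL ZT0 replicates 2 or 3 (adjusted p 0.0673 to 0.087). The summed markers of Kupffer cells and macrophages were 302.5 to 368.9 CPM at ZT6 and 265.2 to 395 CPM at ZT0, with 0 of 7 called.

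Chaperone and hormone-response lists held 1 or 2 calls each, beside 1.56% of all tested genes. Of 21 cytosolic heat shock genes 0 were higher and 2 lower, with a median of -0.09. Hspa4l, of the Hsp110 type, changed by -0.65 on the log2 scale (adjusted p 0.0311), and the small protein Hspb1 by -0.83 (adjusted p 0.0446). Of 20 genes of folding in the endoplasmic reticulum 1 was higher, the disulfide isomerase Pdia6, with 350.2 ± 27.4 CPM at ZT6 and 277 ± 3.15 CPM at ZT0 (SD, n = 4 each, log2 change 0.34 ± 0.08, adjusted p 0.0326). The calls were lost for Hspa4l without LL ZT6 replicates 1, 3 or 4 or LL ZT0 replicates 1, 3 or 4 (adjusted p 0.0604 to 0.125), for Hspb1 without LL ZT6 replicates 1, 2, 3 or 4 or LL ZT0 replicates 1, 2 or 4 (adjusted p 0.0688 to 0.15) and for Pdia6 without LL ZT6 replicates 2 or 4 or LL ZT0 replicates 1, 2, 3 or 4 (adjusted p 0.0571 to 0.165). Of 15 glucocorticoid-induced genes 0 were higher and 2 lower (Zbtb16 and Cdkn1a), with a median of -0.17, while Fkbp5 and Tsc22d3 had log2 changes of -0.65 and -0.43 (adjusted p 0.22 and 0.327). Cdkn1a was also the only call among 22 cell cycle genes, and Stat5b, the main growth hormone signal in liver, the only call among 20 genes of that axis (log2 change -0.36 ± 0.09, adjusted p 0.0438), lost without LL ZT6 replicates 1, 2, 3 or 4 or LL ZT0 replicates 1, 3 or 4 (adjusted p 0.0634 to 0.147).

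A pair of further lists was chosen after their values had been seen. Of 20 cytosolic aminoacyl-tRNA synthetase genes 19 had a positive log2 change, with a median of 0.17, and 2 were called higher, against 0.789% of all tested genes. Aars, for alanine, had 256 ± 10.5 CPM at ZT6 and 195 ± 19.3 CPM at ZT0 (log2 change 0.39 ± 0.09, adjusted p 0.0131), and Mars, for methionine, had 82.9 ± 2.44 CPM at ZT6 and 68.1 ± 3.73 CPM at ZT0 (log2 change 0.28 ± 0.07, adjusted p 0.0445; SD, n = 4 each). Of 24 replication-dependent histone genes only 10 passed the filter on low counts, and all 10 had a negative log2 change, with 3 called lower: Hist1h1e, Hist2h4 and Hist1h4i. Over all tested genes 0.768% were called lower. Hist1h1e had 0.366, 0.441, 0.323 and 0.183 CPM at ZT6, against 1.03, 1.11, 1.10 and 1.195 CPM at ZT0. These messages mostly lack a poly(A) tail, and the libraries were made from polyadenylated RNA. The calls were lost for Aars without LL ZT6 replicates 1 or 4 or LL ZT0 replicates 1, 3 or 4 (adjusted p 0.0505 to 0.0604) and for Mars without LL ZT6 replicates 1, 2, 3 or 4 or LL ZT0 replicates 1, 3 or 4 (adjusted p 0.062 to 0.172). They were lost for Hist1h1e without LL ZT6 replicate 4 (adjusted p 0.0641), for Hist2h4 without LL ZT6 replicates 2 or 3 or LL ZT0 replicates 2 or 4 (adjusted p 0.0594 to 0.0842) and for Hist1h4i without LL ZT6 replicates 3 or 4 or LL ZT0 replicate 1 (adjusted p 0.051 to 0.0988).

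No member was called among 30 cytosolic ribosomal proteins (median log2 change 0.05), 28 nuclear genes of oxidative phosphorylation (-0.02), 30 proteasome genes (0.13), 24 autophagy genes (-0.01), 20 insulin signalling genes (0.01), 24 immediate early genes (-0.04), 22 acute phase genes (0.02) and 28 coagulation and complement genes (0.06). Over all tested genes 1.56% were called in either direction, so nothing is read from a list of this size without a call. For proteasome genes 29 of 30 log2 changes were positive. Markers of sinusoidal endothelium gave 0 calls of 6 and summed to 293.3 to 310.3 CPM at ZT6 and 332.1 to 375.4 CPM at ZT0, so the groups did not overlap. Of 5 tested cholangiocyte markers 1 was called, Sox9, which hepatocytes can also express, with 3.84, 5.01, 6.50 and 6.02 CPM at ZT6, against 9.90, 13.2, 10.004 and 10.4 CPM at ZT0 (log2 change -1.005 ± 0.22, adjusted p 0.0114). The Sox9 call was lost without LL ZT6 replicate 1 or LL ZT0 replicate 2 (adjusted p 0.0503 to 0.0556). The part of cell composition in these results was not tested.

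Of the 225 calls, the fit on only the 16 LL libraries shared 99. Called genes outside the rule for named genes, such as Hsd17b7, Lss, Thra, Bhmt and Sox9, were not checked by name under the settings that follow. Their absence from the lists below does not show that they kept their calls. Among genes taken by that rule, some calls were lost under other settings. In the fit on only the 16 LL libraries this held for Fasn, Pnpla3, Srebf1, Mvk, Fdft1, Abcg5, Acot1, Zbtb16, Sds, Fmo5, Cyp3a13, Gstm4, Sult1d1, Hspa4l, Hspb1, Pdia6, Stat5b, Isg15 and Rhbdd2 (adjusted p 0.0592 for Abcg5 to 0.144 for Fasn). In the fit on only the 8 libraries of the step it held for Loxl4, Fmo5, Cyp3a13, Sult1d1 and Rhbdd2, and with limma-voom for Fasn, Pnpla3, Acot1, Loxl4 and Rhbdd2. With no filter it held for Pdia6, Stat5b and Rhbdd2, and with limma on the deposited log2 values for Fasn and Hspb1. With the replicate number as a block it held for Hspb1 and Stat5b (adjusted p 0.06 and 0.059). Rhbdd2 also lost its call with DESeq2, with DESeq2 size factors, with scaling that left out mitochondrial and the most abundant genes, and with a stricter filter.

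**Figure D3:**
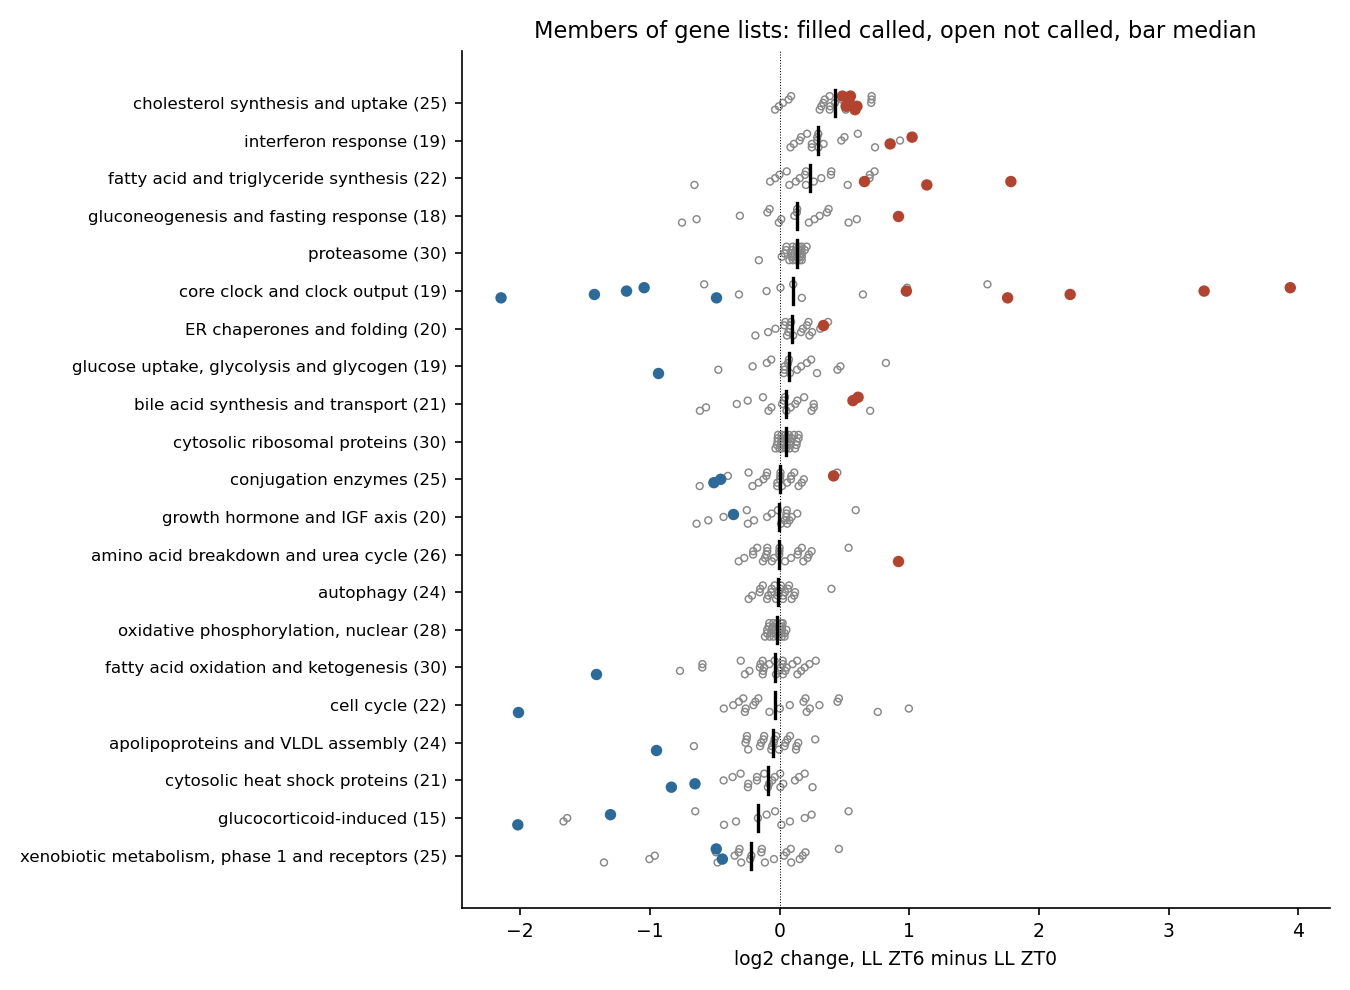
Log2 change between LL ZT6 and LL ZT0 (horizontal axis) of each tested member of 21 gene lists, with the number tested in brackets; filled points were called (red higher, blue lower), open points were not, and the black bar is the list's median. Sterol genes cluster to the right of 0 with a median of 0.43, clock genes spread from -2.15 to 3.94, and ribosomal and oxidative phosphorylation genes stay close to 0.

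The means at the other LL times are set beside these changes. Of the 114 higher genes 75 had their highest LL mean at ZT6, 37 at ZT12 and 2 at ZT18, and 65 had their lowest mean at ZT0 and 46 at ZT18. Of the 111 lower genes 66 had their highest mean at ZT0 and 42 at ZT18, with the lowest at ZT6 in 57 and at ZT12 in 53. These counts use the ZT0 and ZT6 values that made the calls, which favours extremes at those times. They were not made for all tested genes, so no timing is read from them. Dbp, Per3 and Tef were higher still at ZT12, at 95.2 ± 50.8, 105 ± 16.6 and 306 ± 24.8 CPM (SD, n = 4 each), whereas Nr1d1 was at 49.3 ± 13.4 CPM, below its ZT6 mean of 87.1 ± 18.2 CPM. Arntl and Npas2 had lower means at ZT12, 3.36 ± 1.41 and 0.130 ± 0.135 CPM. Cry1 and Ppard had 13.8 ± 1.68 and 11.9 ± 1.54 CPM at ZT6 and 14.4 ± 3.25 and 9.99 ± 1.24 CPM at ZT12. Fasn had its highest LL mean at ZT6, 2426 ± 706 CPM, and stood at 1622 ± 504 CPM at ZT12 and 1699 ± 814 CPM at ZT18. These later means were not tested against ZT6.

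**Figure D4:**
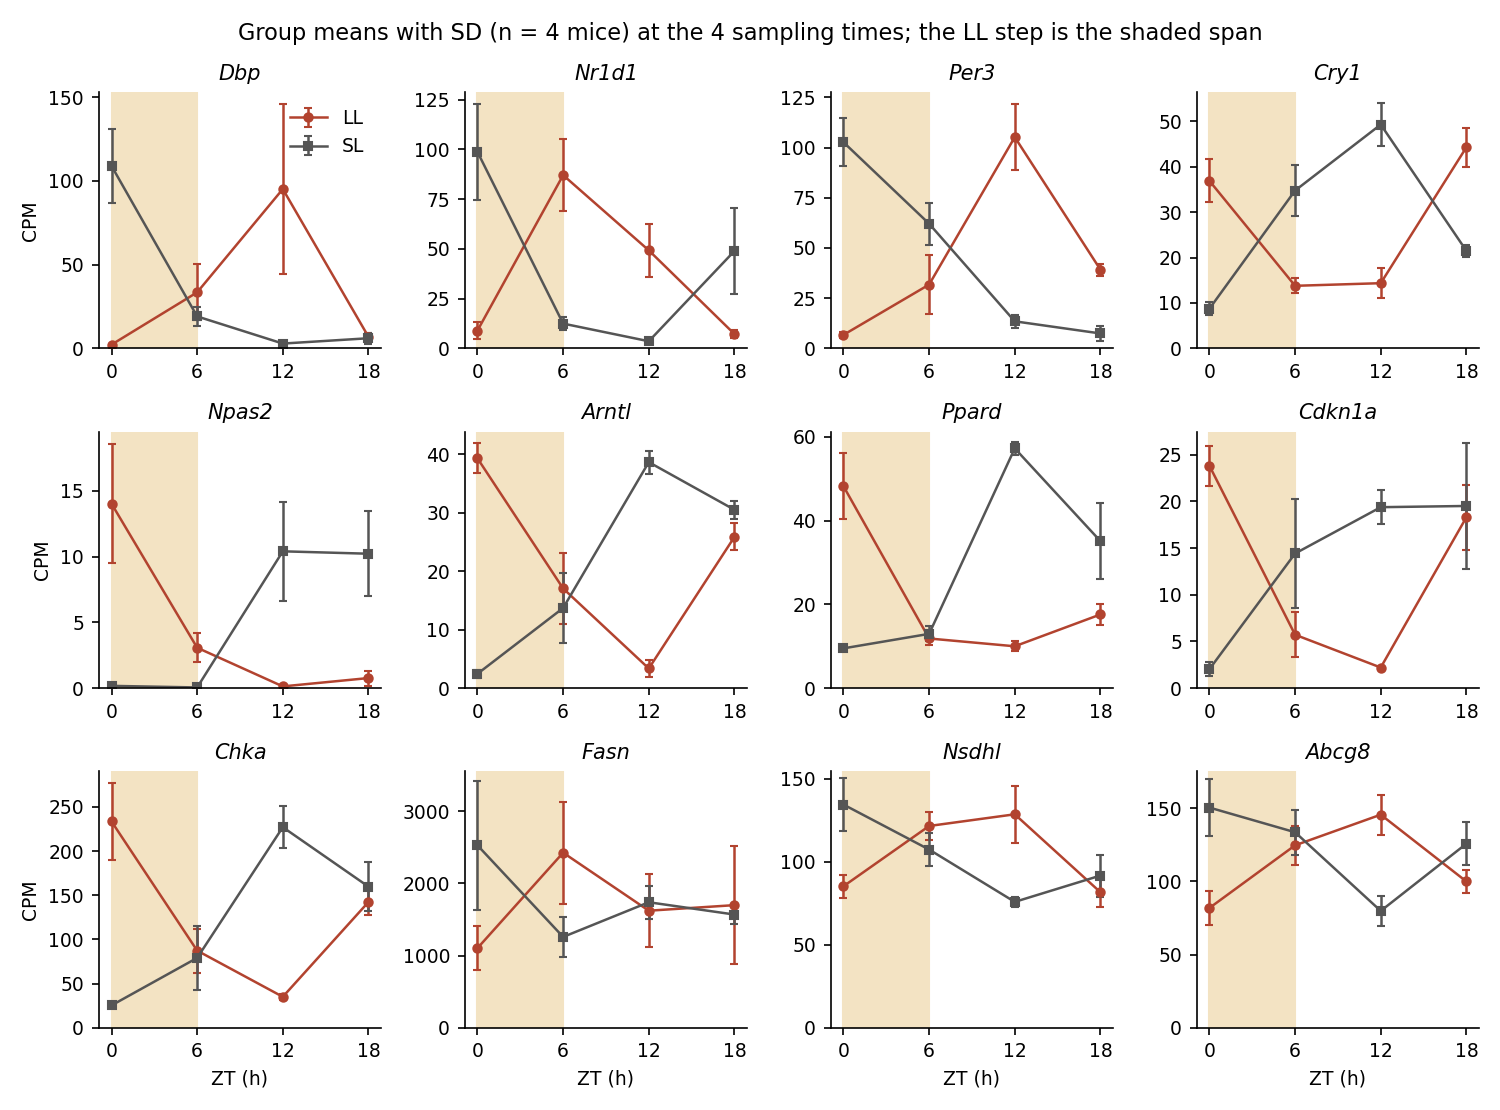
Mean CPM with SD (n = 4 mice per point) of 12 genes at ZT0, ZT6, ZT12 and ZT18 in LL (red circles) and SL (grey squares), with the span from ZT0 to ZT6 shaded. In LL, Dbp and Per3 climb through the shaded span to ZT12, Nr1d1 and Fasn have their highest mean at ZT6, and Cry1, Ppard, Cdkn1a and Chka drop within it; in SL most of these genes go the other way in the same 6 h, and Npas2, near 0 CPM at both SL times, does not.

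Over the same 6 h most of these genes changed in the opposite direction in SL livers. No library is shared between the LL step and the SL steps. Of the 114 genes higher in the LL step, 107 had a negative log2 change from ZT0 to ZT6 in SL (median -0.46), and of the 111 lower genes 102 had a positive one (median 0.52). The SL step from ZT0 to ZT6 had 1180 called genes (8.16%), 3.49% higher and 4.68% lower. In that SL step 78 of the 114 genes that were higher in LL were called lower, and 60 of the 111 genes that were lower in LL were called higher. The genes called in both steps numbered 139, which is 61.8% of the LL calls and 11.8% of the SL calls, and 1 of them had the same sign. The difference between the LL step and this SL step was called for 1664 genes (11.5%, with 6.56% higher and 4.95% lower), among them 108 of the 114 higher and 99 of the 111 lower genes. That difference contains the LL libraries by which these genes were called, so large shares among them follow in part from the choice.

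Cry1, Nr1d1, Gnat1 and Cdkn1a were among the 5 genes with the smallest p for that difference. Nr1d1 changed by 3.27 on the log2 scale in the LL step and by -2.99 in the SL step, a difference of 6.27 ± 0.44 (adjusted p 6.27e-11). Cry1 changed by -1.43 in LL and 1.98 in SL, a difference of -3.41 ± 0.20 (adjusted p 1.79e-12). Cdkn1a changed by -2.02 in LL and 2.89 in SL (difference -4.90 ± 0.40, adjusted p 1.09e-09) and Gnat1 by 1.53 and -1.97 (difference 3.49 ± 0.27, adjusted p 2.11e-10). Sterol genes followed the same pattern. Their median log2 change was 0.43 in LL and -0.54 in SL from ZT0 to ZT6, and the difference was called for 19 of the 25. In SL from ZT12 to ZT18 it was 0.03.

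The SL step from ZT12 to ZT18 was chosen with earlier results of these data known. Those results had put the daily rhythms of SL livers ahead of those of LL livers, so shared signs were expected from the choice. Set against this SL step, 12 h later, the LL step had the same sign for most of its genes. Of the 114 higher genes 101 had a positive log2 change there (median 0.27), and of the 111 lower genes 101 had a negative one (median -0.26). That SL step had 101 called genes (0.699%, with 0.242% higher and 0.457% lower), 37 of them called in the LL step too, which is 16.4% of the LL calls and 36.6% of the SL calls, and 36 of the 37 had the same sign. The difference between the LL step and this SL step was called for 10 genes (0.0692%, with 0.0484% higher and 0.0208% lower), which are Per3, Tef, Ppard, Cdkn1a, Rhbdd2, Por, Smarcd1, Pnpla3, Wee1 and the unnamed locus Gm45819. A gene that was not called here is not shown to act alike in both steps. The count was 6 without LL ZT6 replicate 1, 5 without LL ZT0 replicate 4 and 5 without SL ZT18 replicate 4.

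The genes that set the LL step apart from that later SL step included 2 of the clock. Per3 changed by 2.24 in the LL step and by -0.84 in the SL step, a difference of 3.08 ± 0.38 (adjusted p 6.82e-05). Its means were 31.8 ± 14.8 CPM at LL ZT6 and 6.73 ± 1.42 CPM at LL ZT0, beside 7.44 ± 3.63 CPM at SL ZT18 and 13.5 ± 3.21 CPM at SL ZT12. Tef changed by 0.98 in LL and -0.32 in SL (difference 1.30 ± 0.20, adjusted p 0.00205). Ppard changed by -2.02 in LL and -0.71 in SL (difference -1.31 ± 0.20, adjusted p 0.00205). Cdkn1a changed by -2.02 in LL and 0.01 in SL, with means of 19.5 ± 6.71 CPM at SL ZT18 and 19.4 ± 1.82 CPM at SL ZT12 (difference -2.03 ± 0.35, adjusted p 0.00923). Rhbdd2, a rhomboid family gene, differed by 0.84 ± 0.15 (adjusted p 0.0113).

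**Figure D5:**
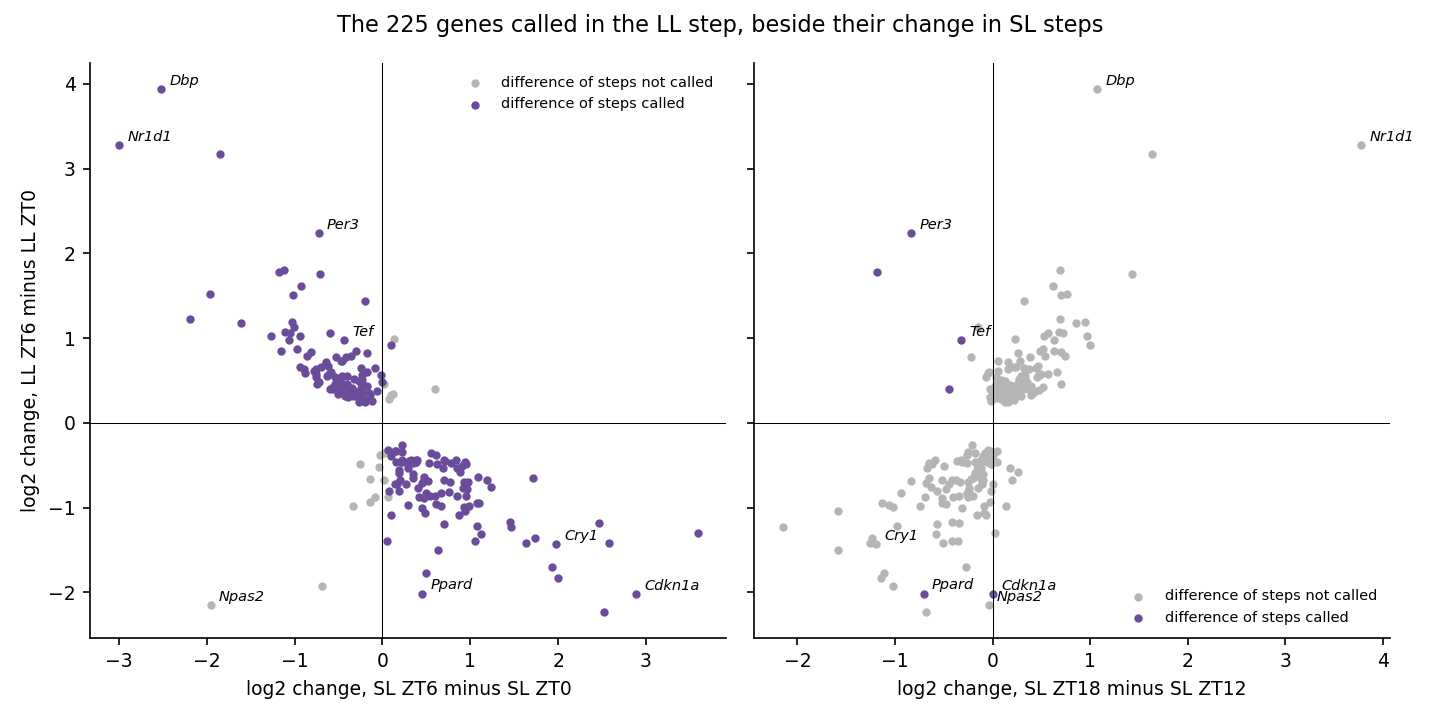
Log2 change of the 225 called genes in the LL step (vertical axis, both panels) against their log2 change in SL from ZT0 to ZT6 (left) and in SL from ZT12 to ZT18 (right). Purple points are genes whose difference between the steps was called; on the left most points lie at the upper left and lower right, on the right panel at the upper right and lower left, with Per3, Tef, Ppard and Cdkn1a among the few purple points.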

How the data were processed

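Polyadenylated liver RNA of 32 mice was sequenced (stranded TruSeq libraries, per the labels' protocols), and 8 libraries form the step. Reads were processed with featureCounts 1.6.2, STAR 2.7.2b and bcl2fastq 2.20.0 on GRCm38 (mm10), per the submitters' processing notes. For counting, the strand setting, the handling of multiple matches and the annotation are not given. Unnormalized read counts, as whole numbers, are what the authors deposited (55471 genes, 32791 with a read). The log2 values the authors deposited for 13432 genes equalled log2 CPM computed here with a prior count of 2 (largest difference 4.97e-14) and served as an alternative.

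Counts were scaled by trimmed mean of M values, filtered with filterByExpr by group, and 14456 genes were fitted over all 32 libraries as 8 group means with edgeR 4.0.16 in R 4.3.3. Contrasts gave LL ZT6 minus LL ZT0 and its difference from SL ZT6 minus SL ZT0 and from SL ZT18 minus SL ZT12, adjusted by Benjamini-Hochberg over all tested genes. Group values are mean CPM with SD. Gene bounds came from GENCODE M21, which holds 14445 of the tested genes, and promoters from RefSeq (GRCm38.p6). Named genes were the 12 largest called rises and falls at a mean of at least 1 CPM (leaving out Gm, Rik and unnamed identifiers), all clock genes, up to 4 members with the smallest p per list, and the 5 smallest p per difference; other names were added after seeing values. Some genes taken by this rule, and results that rest on them, are not reported here. The members, the lists and the SL step from ZT12 to ZT18 were chosen with earlier results of these data known. Alternatives were DESeq2 1.42.0 and its size factors, limma 3.58.1 (voom and the deposited log2 values), other filters and scalings, fewer libraries, a replicate block and each library left out. No libraries of 1 group agreed within counting noise. The fits were tested on simulated data with known changes. Since each library is another mouse, a p-value reflects spread among animals.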

Additional observations from a re-analysis of the deposited data

Results flagged for a closer look

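A single liver stood apart from the other 3 of its group, by Dixon's test at the 95% level, in 8 of 182 groups of values examined over genes of the naming rule. About 1 in 20 groups is expected to be marked by chance. Among clock genes these were Per2 in LL ZT0 replicate 3 (27.8 CPM) and Tef in LL ZT0 replicate 1 (56.0 CPM), each the lowest of its group. Mmd2 was high in LL ZT0 replicate 2 (6.03 CPM) and Neu3 was low in LL ZT6 replicate 1 (0.458 CPM). Gsta3 and Sult1a1 were low in LL ZT6 replicate 4 (929.4 and 201.2 CPM). Foxo3 stood apart in LL ZT6 replicate 1 (51.99 CPM) and P4hb in LL ZT0 replicate 3 (879 CPM).

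The LL step differed from SL steps by edgeR's quasi-likelihood test of the difference itself. From ZT0 to ZT6 in both photoperiods 1664 genes were called, and the log2 difference of LL minus SL was -3.41 for Cry1, 6.27 for Nr1d1, 3.49 for Gnat1 and -4.90 for Cdkn1a. Against the SL step from ZT12 to ZT18 it was called for 10 genes, with 3.08 for Per3, 1.30 for Tef, -1.31 for Ppard, -2.03 for Cdkn1a and 0.84 for Rhbdd2.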

How the results depend on the processing

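The 225 calls became 104 to 214 when 1 library was left out, with 51 to 119 higher and 53 to 100 lower. A fit on only the 16 LL libraries called 109 genes, 44 higher and 65 lower, from fewer libraries. DESeq2 called 327 genes, 175 of them higher. Over the other 8 alternatives the total stayed between 206 and 274. No pairing of the mice by replicate number was seen. Same-numbered livers correlated at 0.0168, -0.107, -0.0643 and 0.0478 in their deviations from the group mean, and livers of unlike number at -0.123 to 0.248. So few values cannot exclude a pairing. The fit with the replicate number as a block called 217 genes, 205 of them shared. Differences from the SL step over the same hours numbered 1227 to 1667 when 1 library was left out. Differences from the SL step from ZT12 to ZT18 numbered 5 to 13 in the same way, 19 with no filter, 18 on only the libraries of the contrast and 18 with DESeq2, and 8 with the block. Of 95 named genes, 50 were called, 25 of these in all 8 fits with 1 library left out, and 0 of the 50 changed sign. The kept signs follow largely from the separation of the groups in called genes. Per1, not called, ranged from -0.44 to 0.11 with 1 library left out and turned to 0.11, 0.019 and 0.058 on the log2 scale without LL ZT6 replicate 3, LL ZT6 replicate 4 and LL ZT0 replicate 2. Bhlhe40, not called, ranged from -0.11 to 0.19 and turned to -0.067, -0.097, -0.11 and -0.072 without LL ZT6 replicates 1 and 2 and LL ZT0 replicates 1 and 3. The causes were not tested. Counts of a few reads limit what can be said of genes near or below 1 CPM.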

Other observations

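Some large differences were not called by the test used for the report. They were picked out after their values had been seen. Gpr179, an orphan receptor gene known from the retina, had 104, 2.64, 3.19 and 173 CPM at LL ZT6, against 3.67, 11.2, 4.29 and 2.52 CPM at LL ZT0. Replicates 1 and 4 at ZT6 were far above the other 6 livers, for a log2 change of 3.65 ± 1.21 and an adjusted p of 0.143 by edgeR's quasi-likelihood test. The locus B430219N15Rik had 12.5, 7.82, 3.98 and 9.45 CPM at ZT6, against 2.79, 2.22, 2.31 and 2.99 CPM at ZT0, without overlap (log2 change 1.66 ± 0.51, adjusted p 0.104). The metallothionein Mt1, which binds zinc and copper, had 6.50, 5.67, 6.03 and 5.20 CPM at ZT6, against 10.5, 23.995, 14.2 and 23.1 CPM at ZT0, also without overlap (log2 change -1.64 ± 0.51, adjusted p 0.116). Mt1 was called with no filter on low counts (adjusted p 0.00828) and on only the 8 libraries of the step (adjusted p 0.00876). The interferon-induced GTPase Tgtp1 had 0.915, 7.44, 1.72 and 4.06 CPM at ZT6, against 1.25, 0.351, 1.10 and 1.195 CPM at ZT0, and was led by replicates 2 and 4 at ZT6 (adjusted p 0.156).

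Further called genes outside the rule for named genes were picked after their values had been seen. Rdh1, below 1 CPM, is a retinol dehydrogenase gene and had 0.275, 0.496, 0.610 and 0.730 CPM at LL ZT6, against 0.0733, 0, 0.110 and 0.0664 CPM at LL ZT0, where 1 liver had no read. Nudt7, a peroxisomal coenzyme A hydrolase, had 1032, 753, 996 and 1032 CPM at ZT6, against 462, 728, 587 and 548 CPM at ZT0 (log2 change 0.71 ± 0.16, adjusted p 0.012), and lost its call without LL ZT6 replicate 4 or LL ZT0 replicate 1 (adjusted p 0.054 to 0.0776). Pxmp4, a peroxisomal membrane protein, went the other way with 117, 153, 152 and 146 CPM at ZT6, against 228, 187, 230.2 and 215 CPM at ZT0 (log2 change -0.60 ± 0.08, adjusted p 5.93e-05). Clpx, a mitochondrial unfoldase, had 212, 362, 327 and 257 CPM at ZT6, against 609, 505, 590.1 and 589.9 CPM at ZT0 (log2 change -0.99 ± 0.17, adjusted p 0.00146).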
